A study of Mus musculus with 6 samples.

Results

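The 10 genes described here make, carry, or use the short-term energy and oxygen buffers of muscle. They were the genes named *Ckm*, *Ckb*, *Ckmt2*, *Gatm*, *Gamt*, *Slc6a8*, *Ak1*, *Ampd1*, *Ampd3*, and *Mb*, taken by symbol from the 55421 genes of the count table. All 10 were found, each once, and all 10 passed the filter on low counts, as did 19005 genes in all. RNA was sequenced from C2C12, a mouse myoblast line whose cells fuse into myotubes when serum is withdrawn, at differentiation day 4. The cells carried a stably transfected plasmid with either 5 CTG repeats (C2C12-CUG5, the normal group) or 200 CTG repeats (C2C12-CUG200, the myotonic dystrophy type 1 or DM1 group) behind the coding part of *GFP*. Both groups therefore carry *GFP* and the resistance used for G418 selection, and both were kept in the same differentiation medium with horse serum and insulin. Each group had 3 libraries. The study calls the replicates biological, and the sources do not say whether they came from separate transfections, clones, or cultures, so the p-values measure the spread between these libraries only. The repeat RNA is transcribed from a transgene in a cell line, so the groups model the repeat and not the *Dmpk* locus of a patient.

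Creatine kinases move a phosphate group between ATP and creatine, so that phosphocreatine holds a reserve from which ATP is rebuilt within moments of contraction. Creatine itself is made in a pair of steps, by GATM and then GAMT, and enters cells through the transporter SLC6A8. Adenylate kinase rebuilds ATP from ADP and leaves AMP, which AMP deaminases turn into IMP, and myoglobin stores oxygen beside the mitochondria. In skeletal muscle the muscle creatine kinase, myoglobin, adenylate kinase 1, and AMP deaminase 1 are known as genes switched on with differentiation, whereas the brain-type creatine kinase is common in myoblasts.

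The libraries held between 61707889 and 80957325 counts. For *Ckmt2*, the gene on which this was checked, a count stood for about 75 aligned bases. The floor used here, 3 counts, was worth between 0.0371 and 0.0486 CPM, the counts scaled to library size. At about 4 counts per fragment, this floor is less than 1 fragment and is not a limit of detection. The mitochondrial share of the counts lay between 8.90% and 13.5%, with overlapping groups. Among all 19005 genes tested, 8.73% were lower and 7.13% higher in CUG200 at an adjusted p-value under 0.05, or 15.9% in either direction. With the study's added cutoff of an absolute log2 fold change over 1, these shares were 0.816% and 1.36%, or 2.18% together. Levels of different genes are compared on the TPM scale, which is per length, and the groups are compared on the CPM scale with TMM scaling.

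The levels of the 10 genes spanned from abundant to barely measured. *Mb* led the normal group with 267 ± 45 TPM (SD, n = 3), and *Ckm* followed with 222 ± 27.0 TPM, with overlapping libraries. The creatine synthesis enzyme *Gatm* (182 ± 6.31 TPM) and the adenylate kinase *Ak1* (180 ± 3.31 TPM) came next and also overlapped. *Gamt* stood at 124 ± 5.93 TPM and *Ckb* at 93.2 ± 18.1 TPM. *Ampd3*, the AMP deaminase known from red cells and many other tissues, was at 44.0 ± 2.96 TPM, and *Slc6a8* at 34.6 ± 3.91 TPM. The mitochondrial creatine kinase of striated muscle, *Ckmt2*, was at 3.07 ± 0.805 TPM, and *Ampd1*, the AMP deaminase of skeletal muscle, at 2.36 ± 0.186 TPM. From *Ckm* to *Gatm* and from *Ak1* down to *Ckmt2*, the libraries of neighbouring genes did not overlap.

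In CUG200 *Mb* stayed first with 171 ± 12.4 TPM, and *Ckm* was at 114 ± 15.7 TPM, after *Ak1* (149 ± 24.9 TPM) and *Gatm* (122 ± 3.79 TPM). From *Mb* down to *Gamt* (89.8 ± 15.5 TPM) each neighbour in this order overlapped with the next, so the order is not separated beyond the spread, and *Ampd3* and *Slc6a8* overlapped too. *Ckb* was at 51.0 ± 5.98 TPM, *Ampd3* at 35.3 ± 8.34 TPM, *Slc6a8* at 29.1 ± 8.03 TPM, *Ckmt2* at 1.30 ± 0.241 TPM, and *Ampd1* at 0.597 ± 0.388 TPM. Over all 6 libraries *Mb* ranked 534 and *Ampd1* 13642 by mean TPM among the 30211 genes with any TPM.

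**Figure D1:**
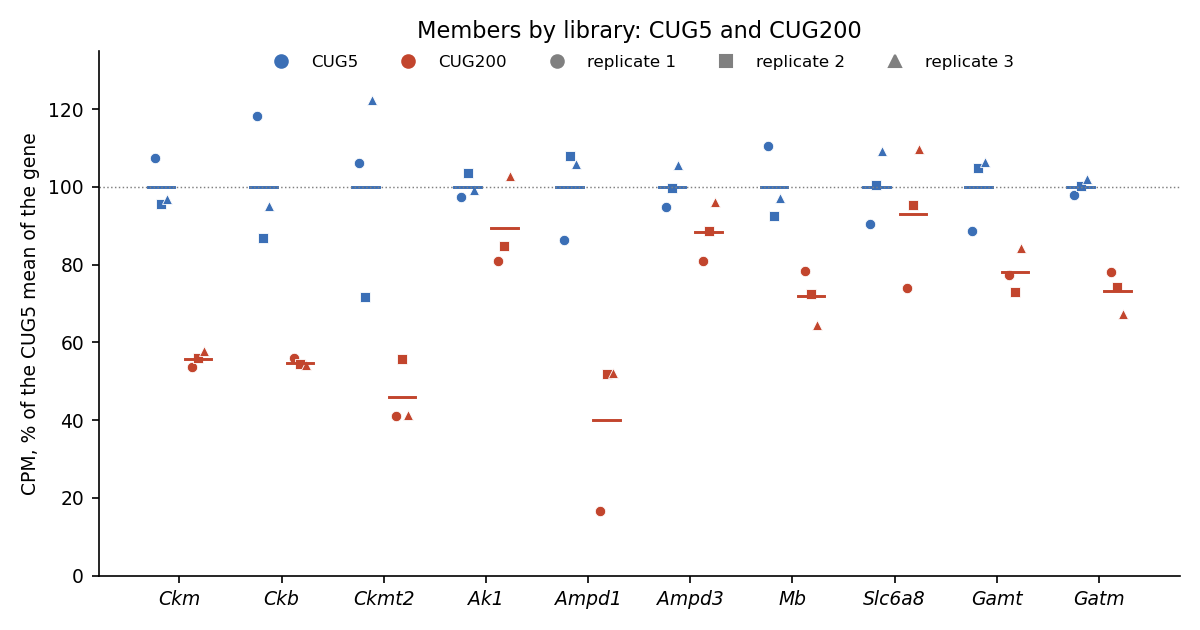
TMM-scaled CPM of each gene as a percent of its CUG5 mean (vertical axis), with a point per library, the shape giving the replicate, the colour the group, and a short line the group mean. The CUG200 libraries lay below every CUG5 library for 7 genes and overlapped with them for *Ak1*, *Ampd3*, and *Slc6a8*.

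The first bases before the transcription start are given because the members moved mostly in 1 direction. RefSeq windows (build GRCm38.p6) from 250 bases before to 50 bases after a start were matched by symbol for 8 of the 10 genes, with 15 windows in all. *Ampd1* and *Slc6a8* had no entry in the set of windows used here. The motifs searched were the E-box CAGCTG, a sequence bound by myogenic factors of the MyoD family, and the 10-base MEF2 site, both on each strand. The E-box was found for 4 of the 8 genes, beside 18.3% of 27025 symbols in the table, and in 6 of the 15 windows, beside 16.3% of 32851 windows of the same length, where overlapping windows of *Mb* hold the same site. The MEF2 site was found for 2 of the 8 genes, beside 3.70% of symbols, and in 2 windows, beside 3.19% of all windows, and in both the match also held TATAAA, the TATA box letters. The sequences of the creatine kinases, *Mb*, and *Ak1* follow from 5′ to 3′ on the strand of the gene, with the motif in capitals.
Ckm, plus strand, chr7:19410844-19410862, E-box: cCAGCTGtcccccgccagc
Ckmt2, minus strand, chr13:91876975-91877004, E-box: ccttcaaggacaCAGCTGggggagtctgtg
Mb, minus strand, chr15:77022903-77022932, E-box: agaattgggtttCAGCTGctggcagtggct
Ak1, plus strand, chr2:32621569-32621598, E-box: gtgagacagtgtCAGCTGggaccggttact
Ak1, plus strand, chr2:32625198-32625227, E-box: ttgtctgagcatCAGCTGacccagctaaag
Ckb, minus strand, chr12:111672348-111672377, MEF2 site: aatgaatgggCTATAAATAGccgccaatgg
Ak1, plus strand, chr2:32625447-32625476, MEF2 site: gctgacagccTTATAAATAGtcgcctttgc
Counted from the start base as 0, the E-box began at -249 for *Ckm*, at -107 for *Ckmt2*, and at -177 and -227 in separate windows of *Ak1*. The same *Mb* E-box began at -133 and at -193 from 2 of its 3 starts in the table, and the window of the other start held no match. The MEF2 match began at -29 for *Ckb* and at 20, past the start, for *Ak1*. These matches are letters in a window, and no binding was measured.

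Of the 10 genes, 6 were lower in CUG200, 0 were higher, and 4 did not pass an adjusted p-value of 0.05 by edgeR's quasi-likelihood test, where 8.73% of all genes were lower and 7.13% higher. The genes that fell were *Ckm*, *Ckb*, *Ckmt2*, *Mb*, *Gatm*, and *Gamt*. No gene was higher at an unadjusted p-value under 0.05, with DESeq2, or with limma-trend. The log2 fold change was negative for 10 of 10, with a median of -0.46, beside 0.0151 over all genes tested. The CUG200 libraries lay wholly below the CUG5 libraries for 7 of the 10 genes, beside 19.3% of all genes tested (17.9% lay wholly above, and 37.2% did either). Past the added cutoff on the fold change was 1 gene, *Ckmt2*, beside 0.816% of all genes in this direction. That count was 0 without CUG5 replicate 1, CUG5 replicate 3, or CUG200 replicate 1, 2 with DESeq2 (*Ampd1* and *Ckmt2*), and 1 with limma-trend on log2(TPM + 1), where the gene was *Ampd1*. The count of lower genes was 7 with DESeq2, which added *Ampd1*, and 2 without CUG5 replicate 3 (*Ckm* and *Ckb*), where 1028 instead of 3016 of all genes passed in either direction. It lay between 4 and 7 without each other library.

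**Figure D2:**
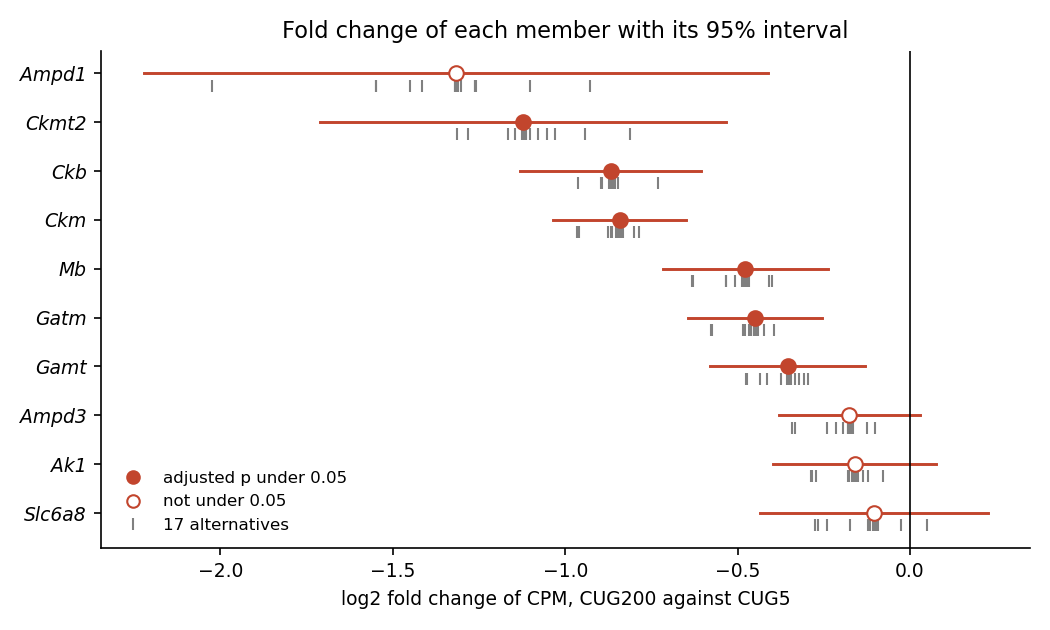
Log2 fold change (CUG200 against CUG5) of the 10 genes on the horizontal axis, with its 95% confidence interval (line), filled points for an adjusted p-value under 0.05, open points otherwise, and grey ticks for the 17 alternatives. The fold changes ran from -1.32 (*Ampd1*, whose interval is the widest) to -0.10 (*Slc6a8*), and the intervals of *Ak1*, *Ampd3*, and *Slc6a8* reached past 0.

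The cytosolic creatine kinases fell by similar amounts. *Ckm* (ENSMUSG00000030399, GRCm38 chr7:19404776-19422841, plus strand), which encodes the muscle subunit, had 388, 345, and 350 CPM in CUG5 and 194, 202, and 208 CPM in CUG200. The groups were far apart, with every CUG200 library under every CUG5 library. Its mean was 361 ± 23.6 CPM in CUG5 and 201 ± 7.29 CPM in CUG200 (SD, n = 3), or 55.8% of the normal level. This was a log2 fold change of -0.84 (SE 0.0848, 95% confidence interval from -1.03 to -0.65, adjusted p = 0.00159), which ranked 56 by p-value among 19005 genes. *Ckb* (ENSMUSG00000001270, chr12:111669361-111672338, minus strand), which encodes the brain-type subunit, had 95.1, 69.9, and 76.5 CPM in CUG5 and 45, 43.7, and 43.6 CPM in CUG200. The CUG200 libraries were almost equal and all low, and CUG5 replicate 1 stood highest. The log2 fold change of *Ckb* was -0.87 (SE 0.115, interval from -1.13 to -0.61, adjusted p = 0.00323), and its CUG200 mean was 54.8% of the CUG5 mean. *Ckm* and *Ckb* kept their call in all 17 alternatives, with adjusted p-values up to 0.0151 and 0.0252.

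*Ckmt2* (ENSMUSG00000021622, chr13:91853387-91876885, minus strand), which places creatine kinase between the mitochondrial membranes, had 2.89, 1.95, and 3.33 CPM in CUG5 and 1.12, 1.52, and 1.13 CPM in CUG200. The groups did not overlap, although CUG5 replicate 2 lay close to CUG200 replicate 2. The libraries held between 75 and 243 counts of it. Its log2 fold change was -1.12 (SE 0.259, interval from -1.71 to -0.53, adjusted p = 0.0225), or 46.0% of the normal mean. The call was lost without CUG5 replicate 1 (adjusted p = 0.0769), CUG5 replicate 3 (0.0981), or CUG200 replicate 1 (0.0586). It was also lost with the replicate number as a block (0.0507), within a range from 0.00209 to 0.0981 over its alternatives. The ubiquitous mitochondrial isoform *Ckmt1* had 0 counts in all 6 libraries.

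The makeup of the creatine kinase pool is given as a description on the TPM scale. Summed over *Ckm*, *Ckb*, *Ckmt1*, and *Ckmt2*, the level was 371, 290, and 294 TPM in CUG5 and 146, 170, and 183 TPM in CUG200. Every CUG200 library was below every CUG5 library. *Ckm* made up 68.3%, 71.2%, and 70.2% of this sum in CUG5 and 68.3%, 65.5%, and 71.6% in CUG200. *Ckb* took 29.1% ± 1.43 in CUG5 and 30.8% ± 2.97 in CUG200 (SD, n = 3), and *Ckmt2* 0.968% ± 0.245 and 0.778% ± 0.107. The shares overlapped between the groups for each of these genes, while the summed level did not. The ratio of *Ckm* to *Ckb* was 2.40 ± 0.165 in CUG5 and 2.24 ± 0.320 in CUG200.

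**Figure D3:**
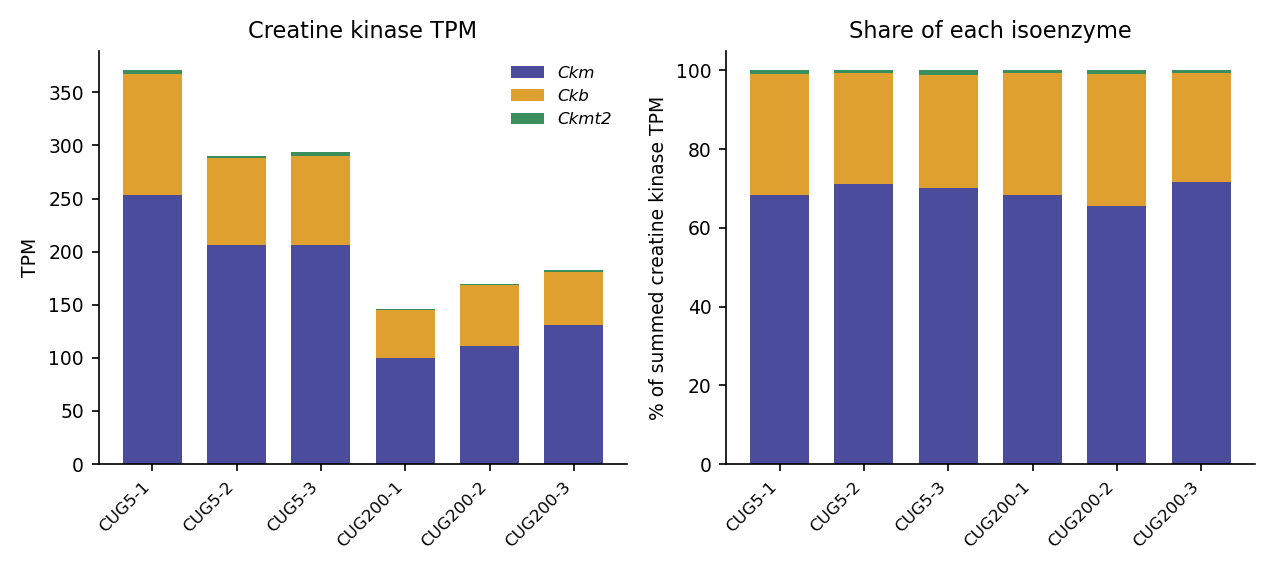
Stacked bars of the TPM of *Ckm*, *Ckb*, and *Ckmt2* in each library (left) and of their shares in the sum in percent (right). The summed level was 318 ± 45.4 TPM in CUG5 and 166 ± 18.6 TPM in CUG200 (SD, n = 3), and *Ckm* took between 65.5% and 71.6% of it in every library.

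Both creatine synthesis enzymes were lower in CUG200, by less than the cytosolic kinases. *Gatm* (ENSMUSG00000027199, chr2:122594467-122611303, minus strand), which makes guanidinoacetate from arginine and glycine, had 241, 247, and 251 CPM in CUG5 and 192, 183, and 166 CPM in CUG200. The CUG5 libraries lay close together and all above CUG200. Its log2 fold change was -0.45 (SE 0.0853, interval from -0.64 to -0.26, adjusted p = 0.0110), or 73.2% of the normal mean. The call of *Gatm* was lost without CUG5 replicate 3 (adjusted p = 0.0631), the highest value over its alternatives, which began at 9.69e-05.

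*Gamt* (ENSMUSG00000020150, chr10:80258151-80261012, minus strand), which methylates guanidinoacetate to creatine, had 64.2, 76.0, and 77.2 CPM in CUG5 and 56.0, 52.8, and 61.1 CPM in CUG200. The groups did not overlap, with CUG5 replicate 1 near CUG200 replicate 3. In the fit its log2 fold change was -0.35 (SE 0.0989, interval from -0.58 to -0.13, adjusted p = 0.0426), or 78.2% of the normal mean. *Gamt* lost its call in 7 of 17 alternatives, with library sizes alone (adjusted p = 0.0521), limma-trend on log2(TPM + 1) (0.0711) and on log2(TPM + 0.1) (0.0708), and without CUG5 replicate 2 (0.142), CUG5 replicate 3 (0.178), CUG200 replicate 1 (0.0808), or CUG200 replicate 2 (0.16). Its adjusted p-values ranged from 0.0176 to 0.178.

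The creatine transporter *Slc6a8* (ENSMUSG00000019558, chrX:73673150-73682502, plus strand) had 35.9, 39.9, and 43.4 CPM in CUG5 and 29.4, 37.9, and 43.6 CPM in CUG200. The highest library was in CUG200 and the groups overlapped. The log2 fold change was -0.10 (SE 0.145, interval from -0.43 to 0.22, adjusted p = 0.687). Without CUG200 replicate 1 it was 0.05.

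Of the adenylate enzymes, 0 of 3 passed the test in either direction, beside 15.9% of all genes, a difference that 3 genes cannot show. At an unadjusted p-value under 0.05, with DESeq2, and with limma-trend, 1 of 3 was lower (*Ampd1*). *Ak1* (ENSMUSG00000026817, chr2:32621758-32635058, plus strand), the cytosolic adenylate kinase of muscle, had 160, 170, and 163 CPM in CUG5 and 133, 140, and 169 CPM in CUG200. CUG200 replicate 3 lay among the CUG5 libraries and the others below them. It had a log2 fold change of -0.16 (SE 0.104, interval from -0.40 to 0.08, adjusted p = 0.344). Without CUG200 replicate 3, *Ak1* passed with a log2 fold change of -0.27 (adjusted p = 0.0348), the lowest of its range from 0.0348 to 0.663.

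*Ampd1* (ENSMUSG00000070385, chr3:103074014-103099720, plus strand) had 1.82, 2.28, and 2.23 CPM in CUG5 and 0.350, 1.09, and 1.10 CPM in CUG200. The groups did not overlap, and CUG200 replicate 1 stood far below the other two. That library held 26 counts of the gene, or 6.5 fragments at 4 counts each, beside 140 to 156 counts in CUG5. The log2 fold change of *Ampd1* was -1.32 (SE 0.398, interval from -2.22 to -0.41, adjusted p = 0.0562), which missed the threshold. It passed in 9 of 17 alternatives, with adjusted p-values between 0.0110 (DESeq2) and 0.153 over the 17. Without CUG200 replicate 1 the log2 fold change was -0.93 and passed (adjusted p = 0.0452). On log2(TPM + 0.1) it was -2.02 and passed (adjusted p = 0.0422).

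*Ampd3* (ENSMUSG00000005686, chr7:110768206-110812405, plus strand) had 73.9, 77.7, and 82.4 CPM in CUG5 and 63.1, 69.0, and 74.9 CPM in CUG200. The ranges overlapped by 1 library on each side. Its fitted log2 fold change was -0.18 (SE 0.0898, interval from -0.38 to 0.03, adjusted p = 0.227).

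*Mb* (ENSMUSG00000018893, chr15:77015487-77050670, minus strand), the oxygen store, had 167, 140, and 147 CPM in CUG5 and 119, 110, and 97.7 CPM in CUG200. All CUG200 libraries were below all CUG5 libraries. The mean fell from 151 ± 14.2 to 109 ± 10.6 CPM (SD, n = 3), or 71.8% of the normal level. The log2 fold change of *Mb* was -0.48 (SE 0.105, interval from -0.72 to -0.24, adjusted p = 0.0184). The call was lost without CUG5 replicate 1 (adjusted p = 0.0729), CUG5 replicate 3 (0.0688), or CUG200 replicate 2 (0.0681), within a range from 0.00109 to 0.0729.

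Several genes share exonic bases with a neighbour on the other strand, and the sources used here do not state whether the counting used strand. *Ckm* shares 451 bases with *A930016O22Rik*, which had between 15 and 69 counts in a library. *Mb* shares 412 bases with *Gm49540*, which had at most 7 counts, and 64 bases with *Apol6*, which had between 154 and 506. *Ampd3* shares 195 bases with *Rnf141*, which had between 2382 and 4382 counts, and the level of *Ampd3* is uncertain to that extent. An alternative with summed counts covered neighbours on the same strand only, so these overlaps were not tested. Reads of the *Ckb* pseudogenes *Ckb-ps1* and *Ckb-ps2* could be split with *Ckb*, and both had 0 counts.

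The libraries of CUG200 were not equally low. CUG200 replicate 1 was the lowest of its group for 6 of the 10 genes, and CUG200 replicate 3 was the highest for 6 genes. *Ckb*, *Mb*, and *Gatm* had the opposite order, with CUG200 replicate 3 the lowest. The profiles of 2 genes over the 6 libraries are compared by the root mean square difference of log2(CPM + 0.5), each centred on its CUG5 mean. Among the 10 genes the closest profiles were those of *Ak1* and *Ampd3* (0.0655), *Ckm* and *Ckb* (0.0909), and *Mb* and *Gatm* (0.0943). Of the 19004 other genes tested, 119 lay within 0.1 of *Mb*, 35 within 0.1 of *Ckm*, and 1 within 0.1 of *Ckb*. A difference of this size from *Mb* or *Ckm* is thus not particular to the members.

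Over all 19004 other genes tested, the profiles most like that of *Ckm* were *Serinc5* (difference 0.0352), *Actc1* (0.0578), and *Slc22a15* (0.0622). *Actc1*, the cardiac actin that embryonic skeletal muscle also uses, went from 670 ± 32.2 to 394 ± 18.7 CPM (SD, n = 3). The profiles most like that of *Mb* were *Med22* (0.0297), *Gm43012* (0.0447), and *Myl4* (0.0458), an embryonic and atrial myosin light chain that went from 449 ± 19.7 to 329 ± 32.7 CPM. *Gm43012* had a mean of 0.959 CPM in CUG5 and 0.573 CPM in CUG200, a level at which the added 0.5 shrinks differences. Its log2 fold change was -0.74 (SE 0.288), beside -0.48 for *Mb*, so its place rests on that added value. For *Ckb* the closest was *Ckm*, followed by *Scml4* (0.10) and *Nefm* (0.101). The 6 libraries share the group difference, so likeness here is a description.

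Most myotube markers were lower in the same libraries. Of 12 tested, 10 were lower and 0 higher, beside 8.73% and 7.13% of all genes, with a median log2 fold change of -1.07. DESeq2 called 10 lower and limma-trend 9, and 0 were higher with either or at an unadjusted p-value under 0.05. The groups overlapped for *Mylpf* (-0.16, adjusted p = 0.403) and *Tnni2* (-0.05, adjusted p = 0.762). The neonatal myosin *Myh8* had the smallest p-value, with a log2 fold change of -2.90 (SE 0.136, adjusted p = 7.65e-05). The summed level of the 12 lay between 12537 and 15200 TPM in CUG5 and between 8277 and 9964 TPM in CUG200. Of 8 myogenic markers 6 were lower, including *Cdh15*, the muscle cadherin (-0.95, SE 0.0836, adjusted p = 0.00104), and *Myog*, the regulator of terminal differentiation (-0.65, SE 0.0767, adjusted p = 0.00227). The count of lower myogenic markers was 6 with DESeq2 and 3 with limma-trend. The fusion gene *Mymx* lay higher in every CUG200 library (0.23, SE 0.0748, adjusted p = 0.0732), the only one of the 8 with a positive value, and the groups overlapped for *Mymk*. Their sum lay between 2818 and 2967 TPM in CUG5 and between 1642 and 2405 TPM in CUG200. Of 9 markers of undifferentiated or cycling cells 1 was higher, *Id2* (0.41, SE 0.103, adjusted p = 0.0304), and 5 of the 9 had a negative value. *Myf5* lay lower in every CUG200 library (-0.26, SE 0.0826, adjusted p = 0.0635). DESeq2 called 1 of the 9 lower and 1 higher, and limma-trend called 0, with 2 lower and 1 higher at an unadjusted p-value under 0.05. The sums of the 9 overlapped (344 to 395 and 339 to 368 TPM). Of 6 myofibroblast or smooth muscle markers 4 were higher, with *Postn* (2.86, SE 0.0865, adjusted p = 3.52e-06) the first by p-value, and limma-trend called 3. *Acta2* (0.20, adjusted p = 0.134) and *Myh11* (-2.42, adjusted p = 0.246, with overlapping groups) did not pass. The sum of the 6, of which *Acta2* gave 2377 of 2640 TPM on average in CUG5, lay between 2455 and 2955 TPM in CUG5 and between 3022 and 3581 TPM in CUG200. The part of these marker differences in the energy-buffering results was not tested, and in bulk RNA fewer cells of a type and less RNA per cell cannot be told apart.

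Of the markers of other lineages C2C12 cells can enter, 0 passed the test in either direction. Over all genes 15.9% passed, and only 2 genes of each list were tested. Of 6 adipocyte markers *Adipoq*, *Cidec*, and *Fabp4* had 0 counts in every library and *Plin1* at most 4, while the 2 tested, *Pparg* and *Cebpa*, did not pass in either direction. Their sum lay between 7.24 and 9.33 TPM in CUG5 and between 6.0 and 8.20 TPM in CUG200. Of 5 osteoblast markers *Alpl* and *Ibsp* reached at most 4 counts, and *Sp7* was at 0 in the CUG5 libraries and in CUG200 replicate 3 and at 0.0403 and 0.182 CPM in the other CUG200 libraries. The 2 tested, *Runx2* and *Bglap*, did not pass. *Runx2* was at 45.2 ± 4.42 CPM in CUG5 and 50.5 ± 7.86 CPM in CUG200 (SD, n = 3), and the sum of the list lay between 15.3 and 18.6 TPM in CUG5 and between 13.0 and 22.1 TPM in CUG200. Neither list had a gene past an unadjusted p-value of 0.05 or a call with DESeq2 or limma-trend.

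Other genes of the same pathways had calls in both directions, with lower calls near the share of all genes. Of 48 listed, 39 were tested, of which 3 were lower, 7 were higher, and 29 did not pass, with a median log2 fold change of 0.0893. Beside the 8.73% lower and 7.13% higher of all genes, the higher genes were mostly in the list of the purine nucleotide cycle, AMP breakdown, and salvage. There 6 of 13 genes were higher and 1 was lower, and *Ampd2*, *Adss*, *Adssl1*, and *Adsl* were among the 6 that did not pass. *Xdh*, which turns hypoxanthine into xanthine and urate, had 14.0, 12.3, and 11.7 CPM in CUG5 and 28.6, 33.5, and 37.4 CPM in CUG200. Every CUG200 library was above every CUG5 library, and the log2 fold change was 1.39 (SE 0.128, interval from 1.10 to 1.68, adjusted p = 0.00114). It passed in all 17 alternatives, with an adjusted p-value of at most 0.0416.

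*Nt5e*, the ecto-5′-nucleotidase that makes adenosine from AMP outside the cell, was higher (log2 fold change 0.71, SE 0.124, adjusted p = 0.00815). *Pnp*, a purine nucleoside phosphorylase, was also higher (0.64, SE 0.110, adjusted p = 0.00782), but its near copy *Pnp2* overlaps it, with 389 to 757 counts, so the split of reads is uncertain. With counts summed over *Pnp* and the genes that overlap it, the log2 fold change was 0.66 (adjusted p = 0.00573). *Nt5c2*, a cytosolic nucleotidase that acts on IMP, was lower (-0.52, SE 0.0865, adjusted p = 0.00734). *Nt5e*, *Pnp*, and *Nt5c2* did not pass with limma-trend (adjusted p between 0.0798 and 0.108), the only alternatives in which they lost the call. The number of related genes that were higher lay between 3 (without CUG5 replicate 2 or 3) and 11 (without CUG200 replicate 3), and was 4 without CUG5 replicate 1 or CUG200 replicate 2 and 2 with limma-trend.

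Among the AMPK subunits, the sensor that reads AMP against ATP, 2 of 7 were lower and 0 were higher, beside 8.73% and 7.13% of all genes. *Prkaa2*, the catalytic subunit common in muscle, had 6.16, 7.39, and 6.48 CPM in CUG5 and 2.62, 2.70, and 2.71 CPM in CUG200. The groups were well apart, with a log2 fold change of -1.32 (SE 0.145, interval from -1.65 to -0.99, adjusted p = 0.00198). On log2(TPM + 1), which understates low genes, it was -0.66. *Prkag3*, the regulatory subunit of fast skeletal muscle, went from 51.4 ± 2.22 to 27.9 ± 2.16 CPM (SD, n = 3), with a log2 fold change of -0.88 (SE 0.0910, adjusted p = 0.00167). *Prkab2* had a log2 fold change of 0.35 (adjusted p = 0.0516), which passed with DESeq2 (0.0236), at least 10 counts in every library (0.0437), counts divided by 4 (0.0429), and without CUG200 replicate 1 (0.0171), in a range from 0.0171 to 0.41. *Prkag2* had a log2 fold change of -0.45 (adjusted p = 0.191), which was -0.68 and passed without CUG200 replicate 3 (0.0420, in a range from 0.0420 to 0.573). For higher AMPK genes the count was 1 at an unadjusted p-value under 0.05, 1 with DESeq2, which called 1894 of all 19005 genes higher, and 0 with limma-trend.

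Of 12 nucleotide kinases, which like *Ak1* move phosphate between nucleotides, 1 was higher and 0 were lower, beside 7.13% and 8.73% of all genes. The share of higher genes was thus near that of all genes. *Nme2*, a nucleoside diphosphate kinase, had 237, 209, and 209 CPM in CUG5 and 358, 292, and 274 CPM in CUG200, with no overlap (log2 fold change 0.50, SE 0.116, adjusted p = 0.0234). Its call was lost with limma-trend and without CUG5 replicate 1 (0.0530), CUG5 replicate 2 (0.0945), CUG5 replicate 3 (0.0941), or CUG200 replicate 2 (0.0628), where these are adjusted p-values in a range from 0.00126 to 0.111. *Nme1* (0.33), *Guk1* (0.29), and *Ak3* (-0.22) did not pass. *Nme1* passed with DESeq2 (adjusted p = 0.0470) and without CUG200 replicate 3 (0.0167), in a range from 0.0167 to 0.305. At an unadjusted p-value under 0.05, 2 kinases were lower and 4 higher, DESeq2 called 0 lower and 2 higher, and limma-trend called 0 in either direction.

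Of the carriers that pass ATP and ADP between mitochondria and cytosol, 0 of 5 passed in either direction. Over all genes 15.9% passed, a difference that 5 genes cannot show. The count was also 0 at an unadjusted p-value under 0.05, with DESeq2, and with limma-trend. *Slc25a4*, the muscle and heart isoform of the adenine nucleotide translocator, had 287 ± 19.3 CPM in CUG5 and 338 ± 55.6 CPM in CUG200 (log2 fold change 0.24, interval from -0.04 to 0.51), and *Slc25a5* a log2 fold change of 0.19 (interval from -0.14 to 0.51). For the outer membrane pores *Vdac1* and *Vdac3*, the values were 0.09 (interval from -0.09 to 0.27) and 0.17 (interval from -0.16 to 0.49). The value of *Vdac1* was -0.02 with limma-trend. Without CUG200 replicate 3, *Vdac3* had a log2 fold change of 0.32 and passed (adjusted p = 0.0431, in a range from 0.0431 to 0.942).

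Of the globins other than *Mb*, 2 of 6 were tested and 0 passed in either direction. Over all genes 15.9% passed, a share from which 2 genes cannot be set apart. The count was also 0 at an unadjusted p-value under 0.05, with DESeq2, and with limma-trend. The alpha globins *Hba-a1* and *Hba-a2* had log2 fold changes of 0.24 (interval from -0.0042 to 0.48) and 0.18 (interval from -0.08 to 0.44). They are near-identical copies, so reads could be split between them.

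**Figure D4:**
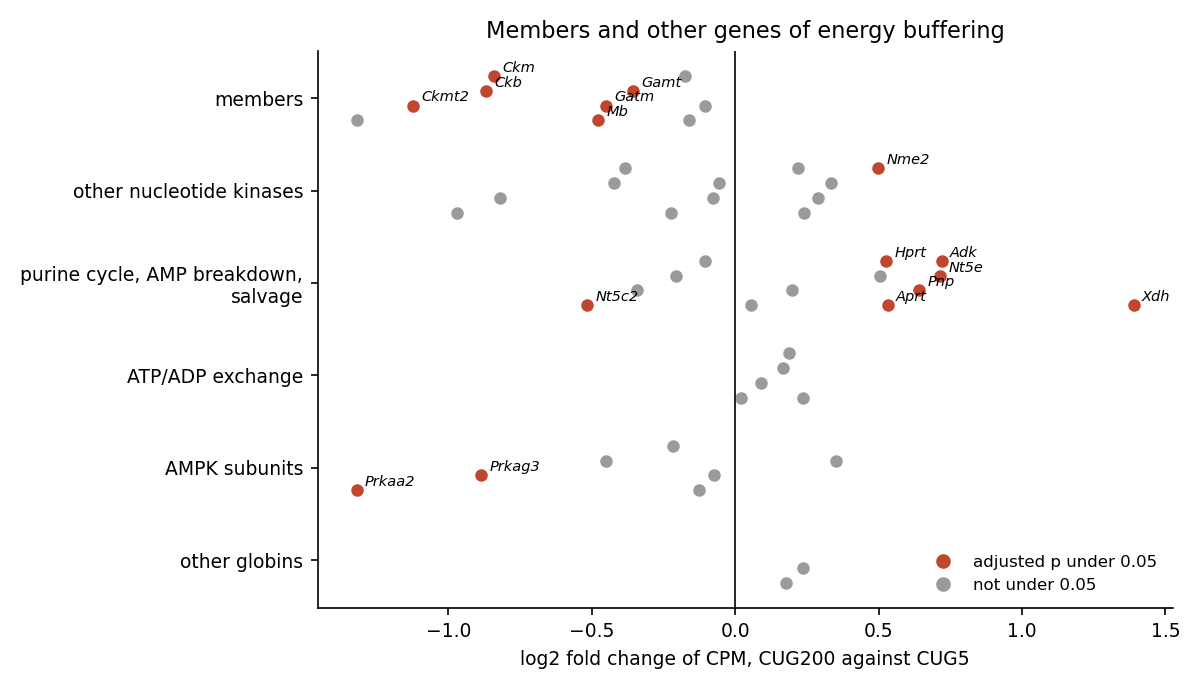
Log2 fold change (CUG200 against CUG5) of every tested gene in the related lists beside the 10 energy-buffering genes, 1 point per gene, red and named for an adjusted p-value under 0.05 and grey otherwise, where the height within a list only spreads the points. The 10 genes all lay below 0, whereas the list of the purine cycle, AMP breakdown, and salvage held 6 higher genes and 1 lower gene.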

How the data were processed

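RNA of 6 C2C12 libraries was analysed, 3 per group, with groups taken from the sample labels. The authors trimmed reads with Trim Galore, aligned them to GRCm38 with HISAT2, and quantified genes with StringTie. They deposited gene counts without normalization and, for each library, the coverage signal of each gene and its level in FPKM and in TPM, both corrected by StringTie for length and depth. The deposited counts were filtered with filterByExpr (minimum count 10), scaled by TMM, and compared with edgeR 4.0.16 (robust quasi-likelihood test, no covariate, R 4.3.3) with Benjamini-Hochberg adjustment over 19005 genes. SE is the absolute log2 fold change over the square root of F. The deposited coverage of *Ckmt2* gave the bases per count, and the deposited TPM values gave levels between genes. Alternatives were DESeq2 1.42.0, other scalings and filters, limma 3.58.1 on log2(TPM + 1) and log2(TPM + 0.1), and counts divided by 4. Others were counts summed with overlapping genes on the same strand, the replicate number as a block, and each library left out. Neighbours on the other strand were not summed. Tests were tested on simulated data. No pair of libraries of a group agreed within sampling noise (chi-square per degree of freedom at least 36.3, on counts of which about 4 make 1 fragment), so none were merged; this does not show how the replicates were made. Depths were 61707889 to 80957325 counts, and floors cover counting error only.

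All 10 members were named. From each related list up to 4 genes with the smallest p-values were named, from each marker list up to 3 examples by p-value, and 3 genes most like *Ckm*, *Mb*, and *Ckb*. Outside this rule, the markers at or near 0 counts and *Mymx*, *Mymk*, *Mylpf*, *Tnni2*, *Acta2*, *Myh11*, and the purine cycle genes that did not pass were named after their values were seen. The members and lists were chosen with earlier results of these data known. Names of the *Ckmt1*, *Pnp2*, and overlapping genes came from the files and GENCODE M21.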

Additional observations from a re-analysis of the deposited data

How the results depend on the processing

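Of 170 alternative values of the 10 genes, 144 kept the direction and the side of the threshold, 15 lost the call, 10 gained it, and 1 turned sign (*Slc6a8*, whose log2 fold change lay between -0.24 and 0.0498 with 1 library left out). Of 306 values of the named related genes, 284 kept both, and the sign turned for *Vdac1* (-0.0166 on log2(TPM + 1) and -0.0167 on log2(TPM + 0.1)). In all, 3016 genes passed, against 1025 with limma-trend on log2(TPM + 1), 1050 on log2(TPM + 0.1), and between 1028 and 3789 with 1 library left out. The number of lower members lay between 2 and 7 and of members past the study's cutoffs between 0 and 1 with 1 library left out. Past those cutoffs were 2 members with DESeq2, at least 1 count in any library, or at least 10 counts in every library. They were *Ampd1* and *Ckmt2*, also with counts divided by 4, limma-trend on log2(TPM + 0.1), or counts summed with overlapping genes on the same strand. The related genes that were higher numbered 2 with limma-trend on either scale and between 3 and 11 with 1 library left out. On counts, not per length, *Ckm* took 81.3% of the creatine kinases in CUG5 and 81.6% in CUG200. The causes were not tested. The log2(TPM + 0.1) scale shifted the median of all genes by -0.11. Deviations of same-numbered libraries correlated at 0.0675, 0.0222, and 0.0263, and those of differently numbered libraries between -0.0722 and 0.0451. Correlations this weak over 3 libraries per group do not settle whether the numbers pair the samples. With the replicate block, 1326 genes were higher and 1497 lower, *Ckmt2* lost its call (log2 fold change -1.10, adjusted p = 0.0507), and *Ampd1* gained one (-1.45, adjusted p = 0.0362), beside ranges of 0.00209 to 0.0981 and 0.0110 to 0.153. The lowest count of a member was 26, for *Ampd1* in CUG200 replicate 1, whose total was the highest of its group.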
